A study of Mus musculus with 6 samples.

Results

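The Slit-Robo and netrin guidance genes examined here are 10 genes of secreted ligands and their receptors, Slit1, Slit2, Slit3, Ntn1, Ntn4, Robo1, Robo2, Robo3, Unc5b and Neo1. They were chosen by symbol, with earlier results of these data known. The 10 rows are a small part of the 55418 genes in the count table. Polyadenylated RNA was sequenced in 6 libraries of MOC2, a line grown from a mouse squamous carcinoma of the mouth and free of papillomavirus. Of these, 3 are labelled EphA4 knockout and come from 1 clone, named H3, so the edit and the clone cannot be told apart. The other 3 are labelled control CRISPR, and whether they are a clone or a pool is not given in the sources used here. Both groups were untreated, were passaged 2 times after thawing, were grown with serum, EGF, hydrocortisone and insulin, and share 1 batch label.

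Slits are secreted proteins that bind Robo receptors on neighbouring cells and usually repel them, and the bound Robo recruits proteins that act on the cytoskeleton. Netrin-1 is a laminin-related secreted protein that binds DCC, neogenin and the UNC5 receptors. UNC5 receptors are known as dependence receptors because they can promote cell death when no netrin is bound. Both systems were first described in growing axons and also act in epithelia, vessels and carcinomas, where they bear on adhesion, migration and survival.

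The sequences below are shown because the members differ in how far their transcripts moved, and the windows let the CpG content of the start sites be compared. They are RefSeq promoters of build GRCm38.p6, from 250 bases before to 50 bases after an annotated start, printed 5′ to 3′ with each CG in capitals. Of the 10 genes, 8 had an entry, and Slit1 and Ntn1 had none. Robo1 and Slit2 had the largest falls among the tested members, and Unc5b and Neo1 had smaller ones.
Robo1 promoter, chr16:72662899-72663198 (+ strand): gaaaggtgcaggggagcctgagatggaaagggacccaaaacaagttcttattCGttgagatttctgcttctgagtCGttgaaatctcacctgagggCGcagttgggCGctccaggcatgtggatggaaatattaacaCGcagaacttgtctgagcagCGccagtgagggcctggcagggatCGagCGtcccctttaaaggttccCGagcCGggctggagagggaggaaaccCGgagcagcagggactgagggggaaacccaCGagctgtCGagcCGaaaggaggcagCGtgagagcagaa
Slit2 promoter, chr5:47982905-47983204 (+ strand): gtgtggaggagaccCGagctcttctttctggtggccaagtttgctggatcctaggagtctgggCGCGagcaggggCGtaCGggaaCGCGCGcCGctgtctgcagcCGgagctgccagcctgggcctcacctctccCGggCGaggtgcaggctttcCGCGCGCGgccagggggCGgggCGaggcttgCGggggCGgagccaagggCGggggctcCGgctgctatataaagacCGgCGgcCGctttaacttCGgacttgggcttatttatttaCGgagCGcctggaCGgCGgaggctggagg
Unc5b promoter, chr10:60831532-60831831 (- strand): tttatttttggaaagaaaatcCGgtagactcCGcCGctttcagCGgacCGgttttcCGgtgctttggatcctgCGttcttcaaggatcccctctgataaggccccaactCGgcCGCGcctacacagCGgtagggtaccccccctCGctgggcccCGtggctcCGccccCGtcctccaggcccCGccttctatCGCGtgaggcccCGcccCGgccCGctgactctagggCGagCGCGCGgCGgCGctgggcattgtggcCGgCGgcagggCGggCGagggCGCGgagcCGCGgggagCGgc
Neo1 promoter, chr9:59036392-59036691 (- strand): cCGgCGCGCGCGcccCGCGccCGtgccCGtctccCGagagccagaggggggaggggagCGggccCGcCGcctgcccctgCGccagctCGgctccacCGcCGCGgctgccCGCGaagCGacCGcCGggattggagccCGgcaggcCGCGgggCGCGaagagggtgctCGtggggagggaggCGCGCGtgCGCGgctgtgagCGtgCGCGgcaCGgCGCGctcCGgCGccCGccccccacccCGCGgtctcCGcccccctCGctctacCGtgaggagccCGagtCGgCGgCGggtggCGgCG

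The Robo1 window holds 15 CG pairs, against 30 in Slit2, 36 in Unc5b and 54 in Neo1. The median over 32841 RefSeq promoter windows of this length was 7 CG pairs, and 65.4% of them had fewer than Robo1 and 99.7% fewer than Neo1. The window of Ntn4 holds 31 CG pairs and that of Slit3 holds 41. Robo3 has 17, and the 3 windows of Robo2 have 9, 5 and 17. Ntn4 and Slit2, with 31 and 30 CG pairs, had log2 fold changes of -0.40 and -2.30. Whether CG content goes with the size of the change was not tested. The GC box GGGCGG, searched on both strands and overlapping with a CG pair by its own letters, occurs 3 times in Slit2, 3 times in Unc5b, 2 times in Neo1, 4 times in Ntn4, 6 times in Slit3 and 3 times in Robo3. It is not in the window of Robo1 or in any of the 3 windows of Robo2, and 35.7% of all windows hold it. The E-box CACCTG, searched on both strands, occurs 1 time in Robo1 and 1 time in Robo3, and 20.2% of all windows hold it. It overlaps with no GC box there. These matches are letters in a window and show no binding.

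Slit2 and Slit3 also carry the 2 genes of miR-218 inside their bodies, and their shared mature miRNA is shown for that reason, with its seed (bases 2 to 8) in capitals.
mmu-miR-218-5p: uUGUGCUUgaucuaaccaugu
Both hairpin genes, Mir218-1 and Mir218-2, had 0 counts in every library. Selection for poly(A) does not capture mature miRNAs, so their level was not measured.

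The libraries held 35115926 to 41775031 counts each, and a single count was worth 0.0239 to 0.0285 CPM, the usual per-library scaling of counts. EphA4 knockout replicate 3 stood apart from the other libraries of its group, with a chi-square per degree of freedom of 30.9 and 31.7 against them, where replicate pairs without it gave 4.41 to 8.89. The edited gene was not lower in the libraries labelled EphA4 knockout. Epha4, the ephrin receptor the study set out to remove, had 3483, 3815 and 3606 counts there, against 1907, 2110 and 2250 in control libraries, and its log2 fold change was 0.86 ± 0.06 (SE; edgeR, adjusted p = 2.1e-06). Gene-level counts cannot tell an edited transcript from an intact one, so directions are those of the knockout-labelled libraries relative to control and not of a loss of Epha4 transcript. Whether the labels of the groups were exchanged was not tested, and an exchange would reverse every direction given here. Of 15199 genes tested with edgeR's quasi-likelihood test, 71.5% passed an adjusted p of 0.05 (Benjamini-Hochberg), 32.7% as higher and 38.8% as lower. Of 9 epithelial markers, 7 were tested, with 4 called higher and 3 lower. Krt8 had 179010 counts in the knockout-labelled libraries and 153031 in control, and Krt18, Cdh1 and Sfn were higher as well. Epcam had 68548 and 108623, and Krt14 and Krt17 were also lower. The basal squamous markers Krt5 and Trp63 were nearly absent, with 0 and 2 counts in the knockout-labelled libraries and 2 and 2 in control. Separate cultures are not named for the samples of a group. The p-values therefore set the group difference against the variation among these samples within a group, and that variation may be technical.

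Transcripts of 6 of the 10 guidance genes were tested, and those of Robo1, Slit2, Ntn1, Unc5b, Ntn4 and Neo1 were lower in the knockout-labelled libraries. This stands against 38.8% called lower among all genes tested, and 0 members were called higher. The fall was by 1 or more on the log2 scale in Robo1, Slit2 and Ntn1, against 20.1% of all genes, and by 2 or more in Robo1 and Slit2, against 12.1%. The other 4, Slit1, Slit3, Robo2 and Robo3, were too low in count to be tested. Robo1 passed the filter on low counts through the control group alone, so its presence among the tested genes already required a difference. The other 5 tested members passed in each group, as did 12487 of all genes tested, of which 4590 were called lower. Sizes ranged from 60.0-fold lower for Robo1 to 1.15-fold lower for Neo1. Without EphA4 knockout replicate 3 the log2 fold changes were -5.45 for Robo1, -2.22 for Slit2, -1.91 for Ntn1, -0.72 for Unc5b, -0.35 for Ntn4 and -0.15 for Neo1, and each was still called. Ntn4 alone lost its call when certain other single libraries were left out, which makes 5 called members there apart from Robo2. In bulk RNA, fewer cells with a transcript and less of it per cell cannot be told apart.

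**Figure D1:**
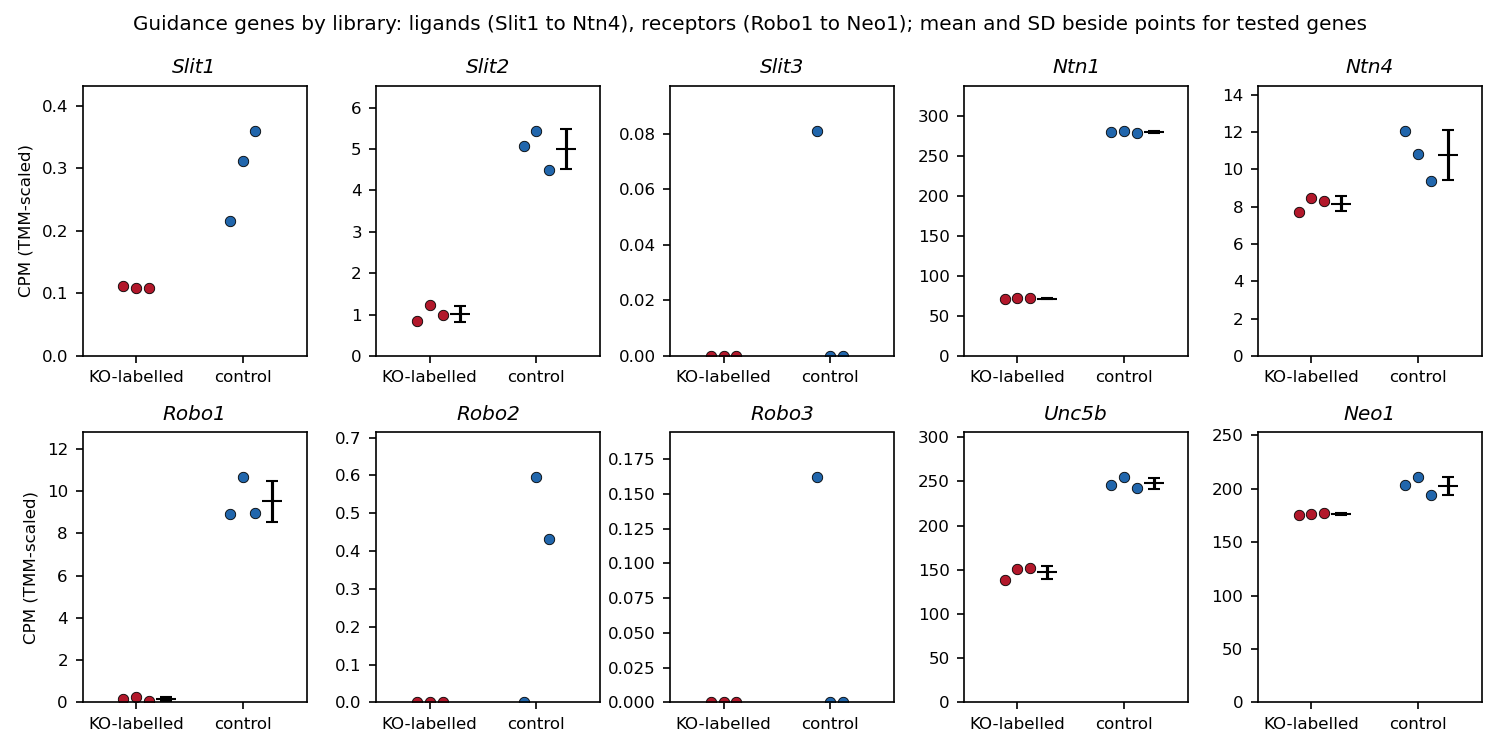
CPM by library for the 10 guidance genes, each panel with its own linear axis from 0, knockout-labelled libraries in red at the left and control libraries in blue at the right, with mean and SD beside the points of tested genes. The groups do not overlap for the tested genes Slit2, Ntn1, Ntn4, Robo1, Unc5b and Neo1, or for Slit1, which was not tested. The other 3 genes are at 0 in most libraries. Among all genes tested, 76.1% had groups that did not overlap, 41.4% with the knockout-labelled libraries lower.

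Among the Slits, Slit2 carried most of the counts, 90.2% in the knockout-labelled libraries and 93.9% in control. Slit2, the Slit best known for binding Robo1, had 30, 45 and 36 counts in knockout-labelled libraries, against 188, 192 and 187 in control libraries. Every knockout-labelled library was below every control library. The means were 1.01 ± 0.19 CPM in knockout-labelled libraries and 5.00 ± 0.48 CPM in control (SD, n = 3 each). The log2 fold change was -2.30 ± 0.25 (SE; edgeR, adjusted p = 3.78e-05), or 4.92-fold lower, and 10.6% of tested genes had a lower fold change.

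Slit1 and Slit3 were close to the limit of detection. Slit1, a Slit mostly of the nervous system, had 4 counts in each knockout-labelled library, against 8, 11 and 15 in control libraries. The groups did not overlap, but its 2.74-fold difference over library totals had a counting interval (95%) from 1.38 to 5.81, and with no filter on low counts Slit1 did not pass (adjusted p = 0.232 in edgeR). Slit3 had 0 counts in every knockout-labelled library and 3, 0 and 0 in control libraries, so no fold is given. Its 3 counts lie in control replicate 1 alone, and the groups overlap.

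Among the tested members the Robo receptor Robo1 had the largest change. Robo1, a receptor for Slits whose signal reaches the cytoskeleton, had 6, 9 and 2 counts in the knockout-labelled libraries, against 331, 376 and 374 in control libraries. Every knockout-labelled library was far below the lowest control library. Robo1 averaged 0.16 ± 0.10 CPM in knockout-labelled libraries and 9.52 ± 0.98 CPM in control (SD, n = 3 each). Its log2 fold change was -5.91 ± 0.41 (SE; edgeR, adjusted p = 1.92e-06), 60.0-fold lower, and 2.95% of tested genes had a lower fold change. By counts over library totals the fall was 61.4-fold, with a 95% counting interval of 38.2 to 106.

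Robo2, a Slit receptor best known from axons and the ureteric bud, had 0 counts in every knockout-labelled library and 0, 21 and 18 in control libraries. Control replicate 1 was at 0 like the knockout-labelled libraries, so the groups touch. Over the groups Robo2 was at least 12.6-fold lower, taking a floor of 3 counts over the group for the knockout-labelled libraries. Robo2 was called lower when no filter was applied (adjusted p = 0.0115 in edgeR), and after control replicate 1 was left out it passed the filter and was called as well (adjusted p = 0.00618). It was also called when EphA4 knockout replicate 3 was left out (adjusted p = 0.0044), and not when EphA4 knockout replicate 1 or 2 was left out (adjusted p = 0.0501 and 0.0506). Robo3, the divergent Robo of commissural axons, had 0 counts in each knockout-labelled library and 6, 0 and 0 in control libraries, the 6 again in control replicate 1. With the same floor this is at least 1.93-fold lower, but the groups overlap. In the knockout-labelled libraries the Robo family was thus read through 17 counts of Robo1, against 1126 counts of the 3 genes in control.

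Markers of another cell type moved in the same direction as the 6 tested members. The 9 fibroblast and pericyte markers summed to 1.91 to 2.06 CPM by library totals in the knockout-labelled libraries and to 50.2 to 53.9 CPM in control. The 7 that were tested were called lower, against 38.8% called lower among all genes tested. However, 6 of them passed the filter through the control group alone. Of all genes tested, 1606 passed in that way, and 1314 of those were called lower. Only Pdgfra, with 170 counts in the knockout-labelled libraries and 1074 in control, did not need a difference to be tested. Of the defining markers, Lum had 0 counts in every library, and Col1a2 had 29 counts in the knockout-labelled libraries and 5 in control, while Col1a1 had 5 and 1673. Their part in the result was not tested. Endothelial markers summed to 0.670 to 1.24 CPM in the knockout-labelled libraries and 1.46 to 1.82 CPM in control, and neuronal and Schwann cell markers to 0.810 to 1.79 CPM and 1.36 to 2.39 CPM. Leukocyte markers summed to 7.68 to 8.77 CPM in the knockout-labelled libraries and 4.70 to 5.12 CPM in control, nearly all of it Csf1r, with Cd3e, Itgam and Tyrobp at 0.

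**Figure D2:**
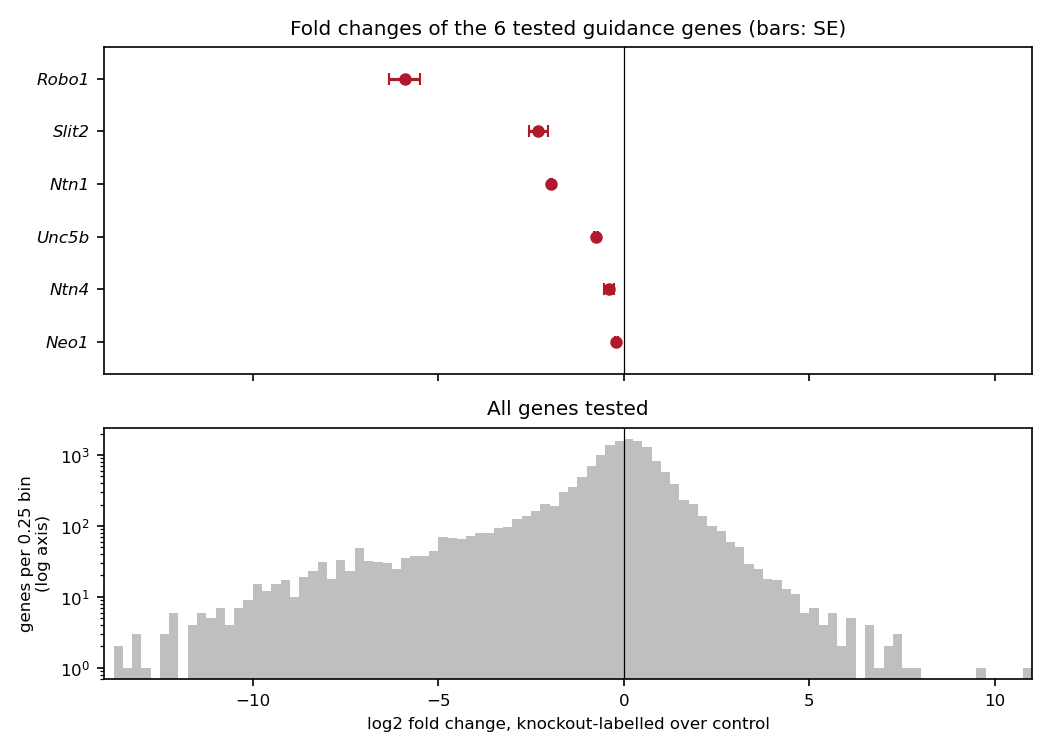
Log2 fold changes of the 6 tested guidance genes (top, points with SE) above the number of genes per 0.25 of log2 fold change among all 15199 tested (bottom, log axis); positive values are higher in knockout-labelled libraries. Robo1 lies in the far left tail at -5.91, Slit2 and Ntn1 near -2, and Unc5b, Ntn4 and Neo1 between -0.75 and -0.20.

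The netrin ligands were much more abundant than the Slits. Ntn1, the netrin that binds DCC, neogenin and UNC5 receptors, had 2543, 2663 and 2660 counts in knockout-labelled libraries, against 10379, 9949 and 11624 in control libraries. The replicates of a group lay close together and the groups were far apart. Ntn1 averaged 71.9 ± 0.68 CPM in knockout-labelled libraries and 280.2 ± 1.43 CPM in control (SD, n = 3 each). Its log2 fold change was -1.96 ± 0.03 (SE; edgeR, adjusted p = 8.44e-10), 3.90-fold lower, and 12.3% of tested genes had a lower fold change. By mean CPM over the libraries, 92.3% of tested genes were lower than Ntn1.

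Ntn4, a netrin that inserts in basement membrane by binding laminin, changed little. It had 276, 312 and 305 counts in knockout-labelled libraries, against 447, 382 and 391 in control libraries, or 8.16 ± 0.39 CPM and 10.8 ± 1.34 CPM (SD, n = 3 each). The groups did not overlap, although control replicate 3 was near the highest knockout-labelled library, at 9.38 and 8.46 CPM. The log2 fold change of Ntn4 was -0.40 ± 0.14 (SE; edgeR, adjusted p = 0.0271). Leaving out EphA4 knockout replicate 1 (adjusted p = 0.105) or 2 (0.0613) ended this call, as did fits without control replicate 1 (0.159) or 2 (0.102), with log2 fold changes of -0.33, -0.39, -0.26 and -0.36.

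Both netrin receptors stayed abundant in the knockout-labelled libraries and were moderately to slightly lower. Unc5b, a netrin receptor of the dependence receptor type that is also known from vessels, had 4962, 5572 and 5572 counts there, against 9125, 8981 and 10096 in control libraries. No knockout-labelled library reached the control range. Unc5b averaged 147 ± 7.25 CPM in knockout-labelled libraries and 248 ± 6.17 CPM in control (SD, n = 3 each). Its log2 fold change was -0.75 ± 0.04 (SE; edgeR, adjusted p = 5.82e-07).

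Neo1 encodes neogenin, a relative of DCC that binds netrins and repulsive guidance molecules. It had 6271, 6513 and 6530 counts in knockout-labelled libraries, against 7536, 7437 and 8086 in control libraries. The ranges did not overlap, and Neo1 averaged 177 ± 1.16 CPM in knockout-labelled libraries and 203 ± 8.32 CPM in control (SD, n = 3 each). Its log2 fold change was -0.20 ± 0.04 (SE; edgeR, adjusted p = 0.00119), the smallest among the tested members. At this size 43.3% of tested genes had a lower fold change, and 76.1% of all genes tested had groups that did not overlap, 41.4% with the knockout-labelled libraries lower.

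Levels were compared between genes as CPM per kb of the longest coding transcript. In the knockout-labelled libraries Unc5b (25.1 ± 1.24) and Neo1 (23.9 ± 0.16) led and overlapped between libraries, followed by Ntn1 (12.2 ± 0.12), Ntn4 (2.24 ± 0.11) and Slit2 (0.102 ± 0.019), in CPM per kb (SD, n = 3). Robo1 and Slit1 came next at 0.0205 ± 0.013 and 0.0193 ± 0.00033 CPM per kb and overlapped, and Slit3, Robo2 and Robo3 were at 0. In control libraries Ntn1 led with 47.7 ± 0.24 CPM per kb, above Unc5b (42.2 ± 1.05), Neo1 (27.5 ± 1.13), Ntn4 (2.95 ± 0.37), Robo1 (1.26 ± 0.13) and Slit2 (0.502 ± 0.048), and no neighbours in that order overlapped. Slit1 (0.0521 ± 0.013) and Robo2 (0.0398 ± 0.036) overlapped there, with Robo3 and Slit3 last. Over the joined exons of all transcripts instead, the order in control was the same, and in the knockout-labelled libraries Slit1 and Robo1 changed places.

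The order of Ntn1 and its receptors thus differed between the groups. The ratio of Ntn1 to Unc5b per length, which is free of library scaling, was 0.512, 0.478 and 0.477 in knockout-labelled libraries, against 1.14, 1.11 and 1.15 in control libraries. The ratio of Ntn1 to Neo1 was 0.509, 0.514 and 0.512 in knockout-labelled libraries, against 1.73, 1.68 and 1.81 in control libraries. The ratio of Unc5b to Neo1 was 0.995, 1.08 and 1.07 in knockout-labelled libraries, against 1.52, 1.52 and 1.57 in control libraries. Ligand and receptors were thus unequally lower, with Ntn1 above both receptors in each control library and below both in each knockout-labelled library. The exact two-sided permutation p was 0.1 for each of the 3 ratios computed, before and after Benjamini-Hochberg adjustment, the smallest that 3 libraries against 3 can give.

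**Figure D3:**
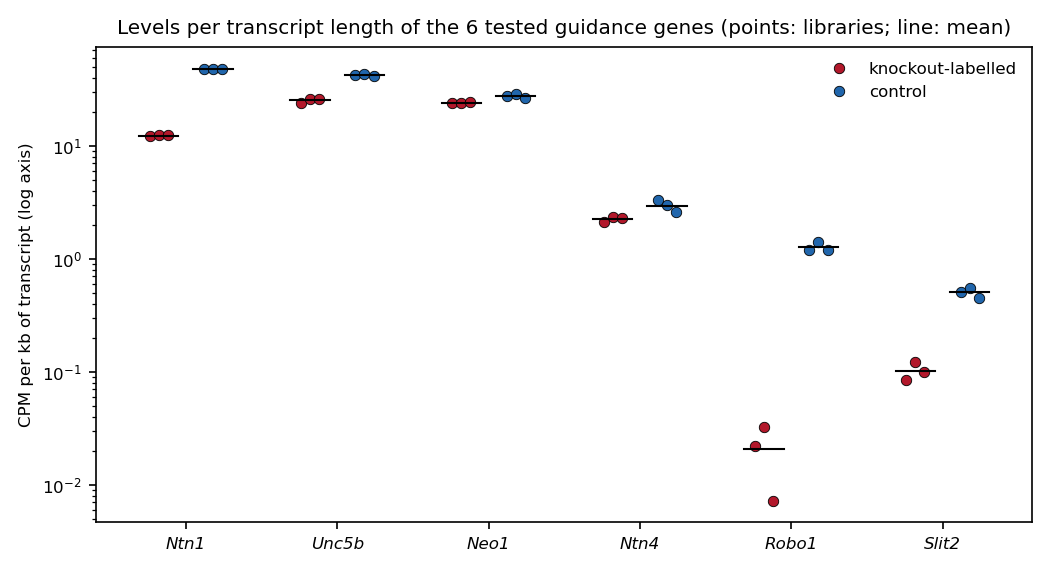
Level per kb of the longest coding transcript for the 6 tested guidance genes on a log axis, knockout-labelled libraries in red at the left of each pair and control libraries in blue at the right, with a line at each mean. Ntn1 lies above Unc5b and Neo1 in control libraries and below them in knockout-labelled libraries, and Robo1 spans the widest gap.

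The wider pathway was described with 72 other genes in 6 lists by role, of which 57 were tested. Of these, 17 were called higher, 33 lower and 7 did not pass, so 87.7% were called, against 71.5% of all genes tested. By direction, 32.7% of all genes tested were called higher and 38.8% lower. Like Robo1, 7 of the 33 passed the filter through the control group alone (Rgma, Ntng2, Unc5a, Srgap1, Dapk1, Elmo1 and Nid1), so these counts and the median are descriptions. The 49 genes that passed in each group had 17 called higher and 26 lower, or 87.8% called. Over all genes, 12487 passed in each group, with 4564 called higher and 4590 lower, or 73.3% called. The median log2 fold change of all 57 tested pathway genes was -0.21, against -0.04 over all genes tested. Without a filter on low counts the count called higher was 11.

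Among other ligands and ligand-side partners, 6 of 11 genes were tested, with 1 higher, 3 lower and 2 not passing. Of all genes tested, 32.7% were called higher and 38.8% lower. Rgma, a repulsive guidance molecule that binds neogenin, had 7, 1 and 7 counts in knockout-labelled libraries, against 447, 493 and 566 in control libraries. Its log2 fold change was -6.55 ± 0.44 (SE; edgeR, adjusted p = 1.49e-06). Its relative Rgmb fell less, with 16.5 ± 0.77 CPM in knockout-labelled libraries and 27.3 ± 3.46 CPM in control (SD, n = 3 each). Ntng2, a membrane-anchored netrin-G that does not use the classical netrin receptors, had 1, 2 and 3 counts in knockout-labelled libraries, against 160, 169 and 195 in control libraries. Flrt3, an adhesion protein that binds UNC5 receptors and Robo1, rose (log2 fold change 0.45, SE 0.11, adjusted p = 0.0049 in edgeR), and Flrt2 had a log2 fold change of -0.03 (adjusted p = 0.79).

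Among other receptors and co-receptors, 7 of 15 were tested, with 2 higher and 5 lower, against 32.7% higher and 38.8% lower among all genes tested. Of the 5, Unc5a passed the filter through the control group alone. Unc5a, a further UNC5 receptor, had 0 counts in every knockout-labelled library and 26, 43 and 38 in control libraries, which is at least 34.5-fold lower with the floor used for Robo2 (adjusted p = 0.000197 in edgeR). Of the syndecans, heparan sulphate proteoglycans of a class that helps Slit bind Robo, Sdc3 fell most, with 6.42 ± 1.25 CPM in knockout-labelled libraries and 45.6 ± 5.70 CPM in control (SD, n = 3 each). Sdc2 and Sdc4 fell by 1.16 and 0.62 on the log2 scale, while Sdc1 rose slightly, with a log2 fold change of 0.13. Dag1, which encodes the Slit-binding dystroglycan, had a log2 fold change of 0.15 (adjusted p = 0.00817 in edgeR). The list's median was -0.62, the same with Unc5a set at its bound.

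Robo effectors went both ways, with 5 of 17 tested higher, 10 lower and 2 not passing. The shares over all genes tested were 32.7% higher and 38.8% lower. Srgap1, a GTPase-activating protein that binds the Robo tail, had 14, 8 and 16 counts in knockout-labelled libraries, against 120, 155 and 157 in control libraries (log2 fold change -3.44, SE 0.35, adjusted p = 2.18e-05 in edgeR). Its relatives differed, Srgap2 falling by 0.59 and Srgap3 having a log2 fold change of 0.15 (adjusted p = 0.0674). The adaptor gene Nck2 fell by 1.00 on the log2 scale. The kinase gene Abl2 rose, with 169 ± 5.40 CPM in knockout-labelled libraries and 86.8 ± 4.94 CPM in control (SD, n = 3 each), and Arhgap39, known in Drosophila as a GTPase-activating protein that binds Robo, had a log2 fold change of 0.63.

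Netrin receptor effectors had 8 of 16 tested higher, 7 lower and 1 not passing, against 32.7% higher and 38.8% lower among all genes tested. Their median log2 fold change was 0.03. Tubb3, a tubulin that binds DCC and UNC5 receptors, fell to 5.93 ± 0.23 CPM in knockout-labelled libraries, against 43.0 ± 2.81 CPM in control (SD, n = 3 each). Elmo1, a partner of DOCK1 in Rac activation, fell by 2.70 and Fyn, a kinase downstream of DCC, by 1.13 on the log2 scale. Dapk1, a kinase of UNC5-linked cell death, had 0, 0 and 10 counts in knockout-labelled libraries and 56, 12 and 25 in control libraries. The Dapk1 call (log2 fold change -3.12, adjusted p = 0.0348 in edgeR) was not made without EphA4 knockout replicate 1 or 2 (adjusted p = 0.0765 and 0.0746) or without control replicate 1 or 3 (0.17 and 0.078). EphA4 knockout replicate 3 holds its 10 counts. Without that library Dapk1 was at 0 counts in the knockout-labelled group, so the fitted value of -7.91 depends on the prior count.

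Genes of Robo processing and trafficking had 1 of 6 higher, 3 lower and 2 not passing. Among all genes tested, 32.7% were called higher and 38.8% lower. Ndfip1, Nedd4l and Ndfip2, which direct or perform ubiquitination, fell by 1.12, 0.70 and 0.50 on the log2 scale. The 5 genes of basement membrane proteins around netrin-4 were called lower, against 38.8% called lower among all genes tested. Of them, Nid1 passed the filter on low counts through the control group alone. Nid1, a laminin-binding nidogen, had 7, 13 and 8 counts in knockout-labelled libraries, against 95, 66 and 120 in control libraries. The laminin chains Lama5, Lamc1 and Lama3 fell by 0.68, 0.32 and 0.29 on the log2 scale. The 7 tested fibroblast and pericyte markers were lower as well, 6 of them tested through the control group alone. Col1a2 went the other way and Lum had 0 counts. The part of these markers was not tested.

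**Figure D4:**
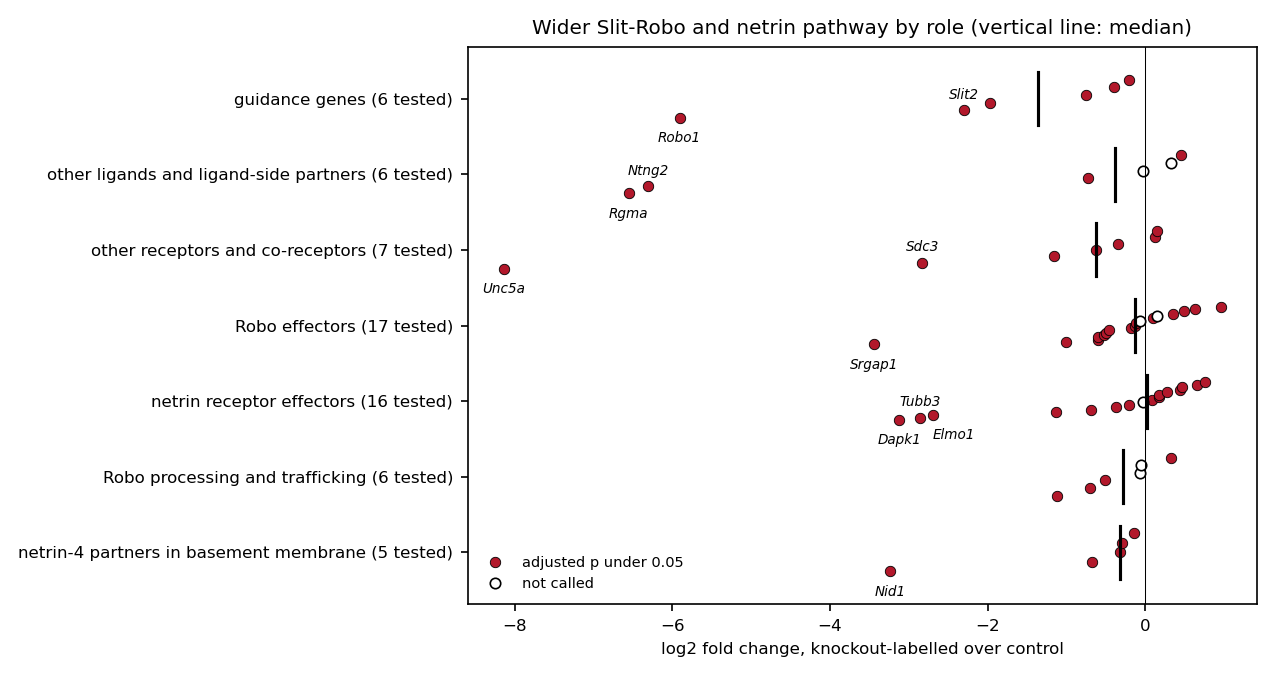
Log2 fold changes of the 6 tested guidance genes and of 57 tested genes of the wider pathway by role, filled where the adjusted p was under 0.05 and open where not, with a line at each median and names for genes below -2. Robo1, Rgma, Ntng2 and Unc5a lie below -5 (the fitted value of Unc5a, at 0 counts in 1 group, depends on the prior count), and the effector lists centre near 0.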

How the data were processed

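The deposited table holds raw read counts per gene symbol in 6 libraries. Per the submitters' processing notes, reads were aligned with STAR to GRCm39. How reads were counted, and with which strand setting, is not given in the sources. The 55418 symbols equal those of GENCODE mouse release M21, on an earlier assembly, from which lengths, overlaps and miRNA hosts were taken. No exon of the 10 members overlaps another gene model there, on either strand.

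Genes kept by filterByExpr (15199 of 28042 with any count) were tested in edgeR 4.0.16 under R 4.3.3 with TMM scaling and the two-sided quasi-likelihood test (glmQLFit, glmQLFTest) of group, without other terms, with Benjamini-Hochberg adjustment over all genes tested and a threshold of 0.05. CPM are TMM-scaled unless library totals are named. Each SE divides the size of the log2 fold change by the square root of F. Floors of 3 counts over a group and exact 95% binomial intervals cover counting error only. Libraries of a group differed by more than sampling noise. Scripts were tested on simulated counts.

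The members and lists were chosen with earlier results of these data known. Named were the 10 members, Epha4, and per list up to 4 called genes with the largest changes, with any list gene at 0 in 1 group and at 30 or more counts in the other (1 gene so chosen is not reported here); Flrt2, Sdc1, Dag1, Srgap2, Srgap3, the markers and the untested pathway genes were named after their values were seen. Alternatives were other scalings (relative log expression, upper quartile, library totals), DESeq2 1.42.0, limma 3.58.1 (voom), no filter on low counts, a minimum of 1 CPM in 3 libraries, a replicate block and each replicate left out. Figures were drawn with matplotlib 3.10.9.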

Additional observations from a re-analysis of the deposited data

How the results depend on the processing

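Each of the 6 tested members kept a negative log2 fold change under all 14 alternatives. Of 84 values over these alternatives, 79 also kept their side of the threshold, and the 5 others were Ntn4. The highest adjusted p was 0.000646 for Slit2, 7.82e-05 for Robo1, 3.5e-07 for Ntn1, 2.65e-05 for Unc5b and 0.024 for Neo1. Ntn4 lost its call with a replicate block (log2 fold change -0.39, adjusted p = 0.054) and without any of 4 single libraries; over the alternatives its adjusted p ran from 0.0199 to 0.159. Members called lower numbered 7 with no filter and 5 to 7 with 1 replicate left out, the added gene being Robo2. Replicate numbers did not pair the libraries (correlations of deviations -0.00875, 0.0474 and 0.0124 for numbers 1, 2 and 3), and the block called 10339 genes in all, against 10867. Wider pathway genes called higher numbered 11 with no filter, against 17; the cause was not tested. Other scalings moved the median of all genes to between -0.0496 and -0.00452, and the direction of no tested member. Depth limits Slit1, Slit3, Robo2 and Robo3. Slit3 and Robo3 have every count in 1 library.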

Other observations

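Several further ligands and receptors of the pathway were too low in count to be tested. Dcc, the classical netrin-1 receptor, had 0, 1 and 0 counts in knockout-labelled libraries, against 2, 19 and 10 in control libraries. Draxin, a secreted netrin-binding protein, had 3, 0 and 3 counts in knockout-labelled libraries and 22, 6 and 1 in control libraries. Bmpr1b had 0, 4 and 4 counts in knockout-labelled libraries and 7, 12 and 24 in control libraries. Ntn3 went the other way, with 8, 4 and 0 counts in knockout-labelled libraries and 0, 2 and 0 in control libraries, and the groups overlap. Unc5d was seen in EphA4 knockout replicate 3 alone, with 6 counts, and had 0 in control. Robo4, Dscam, Cap2 and Trim9 had 0 counts in every library.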
